A study of Mus musculus with 14 samples.

Results

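Cadherins are calcium-dependent adhesion proteins that hold neighbouring cells together, and they are described here as mRNA levels in cerebellar granule neuron progenitors (GNPs) with and without intact Chd7. All protein-coding genes whose mouse symbol is Cdh or Pcdh followed by a number, with or without a final x, were taken, which gave 35 genes of the 41381 in the expression table. The clustered protocadherins, whose symbols carry a letter, are not among them. RNA was sequenced from freshly isolated GNPs of mice at postnatal day 7, with 5 libraries for the label WT, 5 for Het and 4 for Hom. WT mice are given as Chd7 wild type or as Atoh1-Cre negative, Het mice were Atoh1-Cre::Chd7 f/+ and Hom mice were Atoh1-Cre::Chd7 f/f, so that the mutant groups carry the Cre and the WT group does not. The strain is written C56Bl6/J in some sample records and C57BL/6 in others. Atoh1-Cre is active in the granule cell lineage, and other cells that come along with the preparation keep their Chd7. The libraries were sequenced in 2 batches, 8 in batch 1, which are numbers 1 to 3 of WT and of Het with numbers 1 and 2 of Hom, and 6 in batch 2, which are the rest. The batches are those of the study's methods, although the record of Het 3 is titled in the style of the batch 2 records.

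A classical cadherin binds its own kind on the next cell with its extracellular repeats and reaches the actin skeleton through catenins bound to its tail. Type I members, such as N-cadherin, give strong adhesion, whereas type II members are expressed in finer patterns in the brain and help sort neurons into layers and partners. Most non-clustered protocadherins fall into a delta-1 and a delta-2 group, which differ in their cytoplasmic tails and signal more than they hold. Pcdh12, Pcdh15 and Pcdh20 are grouped apart from both here. In the cerebellum, granule cells leave the external granule layer along Bergmann glia and settle below the Purkinje cells, a path on which adhesion between cells is remodelled.

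Chd7 itself was checked first. Levels are given as TPM, a share of all transcripts that is scaled by their length. In batch 1 Chd7 was at 120.81 to 151.68 TPM in the 3 WT libraries, 150.35 to 181.3 in the 3 Het libraries and 172.49 to 185.39 in the 2 Hom libraries, so that every labelled mutant library except Het 3 lay above all 3 WT libraries. In batch 2 WT was at 203.25 to 272.06 TPM, Het at 136.77 to 149.36 and Hom at 125.63 to 149.87. Pooled over batches, Chd7 in Hom had a log2 change of -0.11 (SE 0.20, adjusted p 0.862 by limma). A TPM of the whole gene does not report the deleted part alone. Because of batch 1, the groups are named by their labels, and each direction below rests on those labels. All 11 GNP markers examined, Atoh1, Barhl1 and Gli1 among them, were above 0 in every group, with a summed TPM of 3040 to 3990 in WT (Het 3290 to 3520, Hom 3140 to 3540). TPM keeps no read number, so the depth behind each value is unknown.

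N-cadherin dominated the family. Cdh2, the type I cadherin of neural tissue, had a mean of 132 ± 6.76 TPM (SD, n = 5) in the libraries labelled WT, which was 32.2% ± 1.88 of the summed TPM of all 35 genes. Its values were 121.53, 134.53, 130.52, 139.01 and 135.99 in WT 1 to 5, and 147.03, 155.6, 141, 131.67 and 141.35 in Het 1 to 5. The values of Hom 1 to 4 were 133.52, 151.95, 132.19 and 141.87. The 3 groups overlapped, and the log2 change in Hom was 0.08 (SE 0.06, 95% interval -0.05 to 0.22, limma adjusted p 0.601). TPM is scaled by transcript length, so levels can be compared between genes. The next 5 genes by mean TPM over all libraries were Cdh24 (36.1), Cdh8 (34.4), Cdh4 (25.9), Cdh20 (24.8) and Cdh5 (19.3), of which Cdh24, Cdh8 and Cdh20 are type II cadherins of the nervous system and Cdh5 is VE-cadherin, the type II cadherin of blood vessels.

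Cdh24, Cdh8 and Cdh20 overlapped between all groups. Cdh8 was 33.03, 30.56, 34.14, 39.38 and 37.45 TPM in WT 1 to 5, and 37.85, 30.76, 32.79, 34.78 and 33.91 in Het 1 to 5. Hom 1 to 4 had 36.42, 34.91, 31.4 and 34.71 TPM. Cdh24 was 38.46, 37.37, 36.33, 36.9 and 41.94 in WT, 33.72, 35.68, 36.21, 32.61 and 40.27 in Het, and 31.97, 26.43, 48.09 and 29.94 in Hom. In 3 of the 4 Hom libraries Cdh24 lay below every WT library, and in Hom 3 it lay above every other library. The log2 change of Cdh24 in Hom was -0.21 (SE 0.13, limma adjusted p 0.48), and without Hom 3 it was -0.36 (adjusted p 0.0446), so that 1 library decided the call. Cdh20 was 24.43, 26.05, 22.23, 25.99 and 27.92 TPM in WT, 24.61, 24.67, 22.63, 23.48 and 26.53 in Het, and 21.25, 25.9, 20.91 and 30.92 in Hom. The Hom change (log2) was -0.06 (SE 0.11) for Cdh20 and -0.02 (SE 0.08, 95% interval -0.20 to 0.15) for Cdh8. Cdh24 and Cdh8 did not differ in level beyond their spread between libraries, at 38.2 ± 2.23 and 34.9 ± 3.52 TPM (SD, n = 5) in WT.

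**Figure D1:**
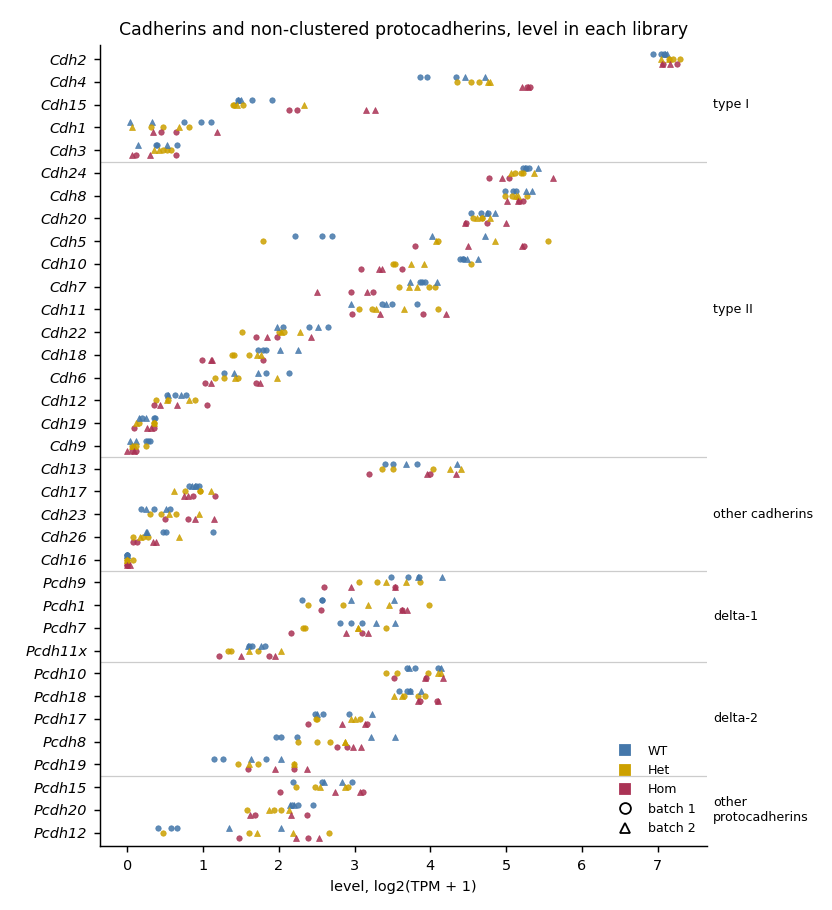
Level of each of the 35 genes in each of the 14 libraries as log2(TPM + 1), grouped by subfamily, with colour for the labelled genotype and marker shape for the sequencing batch. Cdh2 lies at the top of the range, the Hom libraries stand apart from the WT libraries for Cdh4, Cdh15, Cdh7 and Cdh10, and Cdh5 and Pcdh12 are spread widely within WT.

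Of the 35 genes, 26 reached a TPM of 1 in 4 or more libraries and were tested. The 9 that were not are best known from other tissues or are very low here. The means over all libraries were 0.539 TPM for Cdh1 (E-cadherin of epithelia), 0.324 for Cdh3 (P-cadherin), 0.854 for Cdh17 (intestine), 0.517 for Cdh23 (a tip-link protein of inner ear hair cells), 0.301 for Cdh26, and 0.561, 0.2 and 0.0936 for the type II genes Cdh12, Cdh19 and Cdh9. Cdh16, of kidney epithelium, had a mean of 0.005 TPM and no value above 0.05. Among delta protocadherins all 9 genes were tested, with means from 2.16 TPM (Pcdh11x) to 13.8 TPM (Pcdh10). Pcdh15, the tip-link partner of Cdh23, had a mean of 5.45 TPM, although a processed pseudogene model on the same strand lies within it.

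To find which members differ with homozygous loss, the libraries labelled Hom were compared with those labelled WT. Values were tested as log2(TPM + 1) with limma, in 1 model of genotype and batch over the 14 libraries. Genes whose p, adjusted over the 17325 genes tested, was under 0.05 are termed called. The type I cadherins Cdh4 and Cdh15 rose, and the type II cadherins Cdh7 and Cdh10 fell. These were 4 of the 26 members tested (15.4%), where 2.68% of all genes tested were called (1.41% lower and 1.27% higher). The same 4 genes were those in which every Hom library lay beyond every WT library, 2 below and 2 above, which held for 1.96% and 2.91% of all genes. The median log2 change over the 26 members was 0.02, beside 0.024 over all genes, and 13 of the 26 lay below 0.

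Cdh4 encodes R-cadherin, a type I cadherin first described in the retina (ENSMUSG00000000305; GRCm38 chromosome 2, 179442431 to 179899373, plus strand). It was 14.53, 19.19, 13.5, 25.44 and 20.87 TPM in WT 1 to 5, and 23.91, 19.46, 22.27, 26.19 and 26.73 in Het 1 to 5. The values of Hom 1 to 4 were 37.72, 38.7, 36.04 and 38.28. All 4 Hom libraries lay above all others, and they were close together at 37.7 ± 1.17 TPM (SD, n = 4) against 18.7 ± 4.87 (SD, n = 5) in WT. The log2 change was 0.98 (SE 0.13, 1.97-fold, limma adjusted p 8.07e-04). It was 1.24 in batch 1 alone (adjusted p 0.015) and 0.67 in batch 2 alone (adjusted p 0.175), where the WT libraries were higher. Cdh4 also had the lowest exact Kruskal-Wallis p of the family over the 3 genotypes on batch-adjusted values, at 7.14e-05, where the lowest that 252252 arrangements can give is 2.38e-05.

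Cdh15 encodes M-cadherin, known from skeletal muscle and also found at junctions of the cerebellar granule layer (ENSMUSG00000031962; GRCm38 chromosome 8, 122847966 to 122867397, plus strand). It was 2.12, 2.74, 1.75, 1.84 and 1.76 TPM in WT 1 to 5, and 1.66, 1.63, 1.88, 1.72 and 4.01 in Het 1 to 5. Hom 1 to 4 had 3.72, 3.38, 8.64 and 7.88 TPM. Both Hom libraries of batch 2 exceeded those of batch 1, and Het 5 stood above the other Het libraries and also above both Hom libraries of batch 1. The Hom change (log2) was 1.06 (SE 0.24, 2.09-fold, limma adjusted p 0.0286), with 0.52 in batch 1 alone (adjusted p 0.312) and 1.72 in batch 2 alone (adjusted p 0.149). The call did not hold without WT 3, WT 4, WT 5, Hom 3 or Hom 4, with adjusted p between 0.0625 and 0.0957 and changes between 0.93 and 1.07. Cdh15 lies within Gm20388, a protein-coding gene model on the same strand that had 25.07 to 36.31 TPM, so reads of the 2 models cannot be fully told apart.

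Cdh10 is a type II cadherin of brain (ENSMUSG00000022321; GRCm38 chromosome 15, 18818947 to 19014236, plus strand). It was 20.49, 20.02, 20.51, 21.44 and 23.79 TPM in WT 1 to 5, and 10.36, 22.29, 10.58, 12.44 and 14.09 in Het 1 to 5. The values of Hom 1 to 4 were 7.49, 11.33, 9 and 9.28. The Hom libraries lay below every WT library, and 4 of the 5 Het libraries did as well, whereas Het 2 lay within the WT range. The Hom change (log2) was -1.13 (SE 0.19, 0.457-fold, limma adjusted p 0.00471), with -1.06 in batch 1 alone (adjusted p 0.187) and -1.22 in batch 2 alone (adjusted p 0.055).

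Cdh7 is a type II cadherin that takes part in the contacts of granule neurons with mossy fibres (ENSMUSG00000026312; GRCm38 chromosome 1, 109982431 to 110140157, plus strand). It was 13.76, 13.54, 14.27, 12.32 and 15.94 TPM in WT 1 to 5, and 15.64, 14.85, 11.02, 12.1 and 13.17 in Het 1 to 5. Hom 1 to 4 had 8.43, 6.73, 4.67 and 7.97 TPM. Here the Hom libraries lay below all WT and all Het libraries, and the WT and Het libraries overlapped. The Hom change (log2) was -0.92 (SE 0.15, 0.527-fold, limma adjusted p 0.00386), with -0.80 in batch 1 alone (adjusted p 0.088) and -1.07 in batch 2 alone (adjusted p 0.194).

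**Figure D2:**
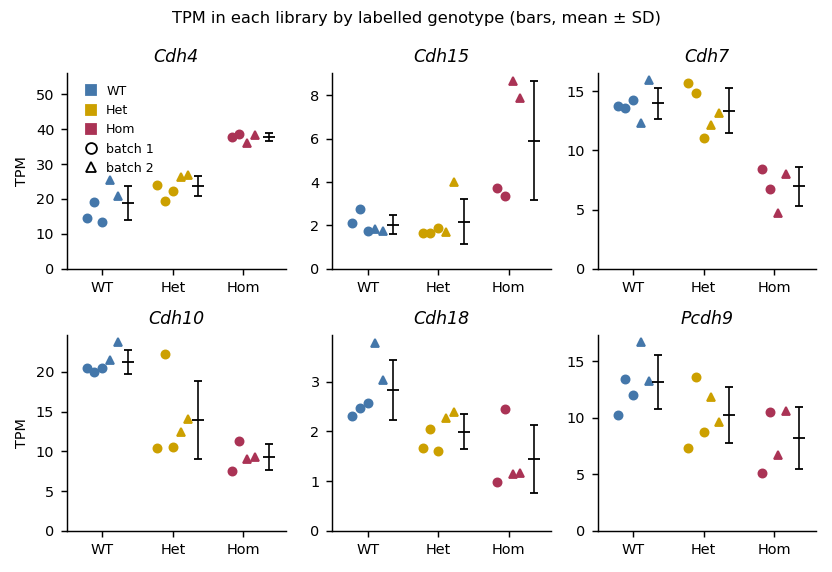
TPM of 6 members in each library by labelled genotype, with marker shape for the batch and bars for the mean ± SD. The Hom libraries of Cdh4 (36.04 to 38.7 TPM) and Cdh15 lie above all WT libraries, those of Cdh7 and Cdh10 (7.49 to 11.33 TPM) lie below them, and Cdh18 and Pcdh9 overlap.

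The upstream sequences of Cdh10 and of Cdh18, another type II gene of the same stretch of chromosome 15, are shown because both genes had negative changes in Hom. They are the 250 bases before the RefSeq start of each gene (GRCm38.p6, plus strand, 5′ to 3′), with each match to CANNTG, the E-box core bound by factors such as Atoh1 and Neurod1, in capitals. Cdh10 is shown from chr15:18820079-18820328 and Cdh18 from chr15:23036213-23036462. Both windows lie inside the GENCODE span of their gene, whose first annotated start is further upstream, by 1.38 kb for Cdh10 and 487 kb for Cdh18, so each is upstream of 1 of several annotated starts. The Cdh10 window overlaps 0 annotated exons, and the Cdh18 window overlaps 1.
Cdh10: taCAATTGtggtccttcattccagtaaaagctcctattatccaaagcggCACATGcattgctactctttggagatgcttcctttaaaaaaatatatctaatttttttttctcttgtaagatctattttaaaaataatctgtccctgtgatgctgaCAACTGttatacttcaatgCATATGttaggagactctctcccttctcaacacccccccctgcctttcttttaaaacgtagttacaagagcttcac
Cdh18: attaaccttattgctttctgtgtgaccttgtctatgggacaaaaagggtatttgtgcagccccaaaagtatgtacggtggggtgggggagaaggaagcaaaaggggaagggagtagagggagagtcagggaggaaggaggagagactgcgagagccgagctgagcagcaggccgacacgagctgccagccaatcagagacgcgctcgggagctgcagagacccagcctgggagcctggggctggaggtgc
The Cdh10 window held 4 matches and the Cdh18 window none. The pattern reads the same on both strands, and 66.0% of the upstream windows of 27025 genes held at least 1 match. The share of windows with 4 or more matches was not computed. Cdh10 had 2 CG pairs in its window and Cdh18 had 8, beside a median of 6 over all genes. A window was found for 22 of the 35 members, and Cdh4 was not among them.

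Cdh18 did not pass the test. It was 2.3, 2.46, 2.57, 3.78 and 3.03 TPM in WT 1 to 5, and 1.66, 2.04, 1.6, 2.26 and 2.38 in Het 1 to 5. The values of Hom 1 to 4 were 0.98, 2.45, 1.15 and 1.17. Hom 2 lay among the WT libraries, and the other 3 Hom libraries lay below all of them. The log2 change was -0.69 (SE 0.18, limma adjusted p 0.0689), and without Hom 2 it was -0.93 (adjusted p 0.00416). Hom 2 was singled out after its value was seen, and leaving out any other library gave adjusted p of 0.0806 to 0.193. The exact Kruskal-Wallis p of Cdh18 over the genotypes was 0.00381, without correction. By that test at an unadjusted p under 0.01, Cdh7 (0.00897), Cdh10 (0.00467) and Cdh18 were lower in Hom and Cdh4 and Cdh15 (0.00897) higher, where 2.22% of all genes were lower and 2.42% higher. The other members of the chromosome 15 stretch, which runs from 13028701 to 23474418, were Cdh6, with 2.27 ± 0.783 TPM in WT and 1.7 ± 0.702 in Hom, and the untested Cdh9 and Cdh12. On chromosome 1, Cdh20, Cdh7 and Cdh19 lie between 104768529 and 110977584, and of these Cdh7 alone was called.

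By subfamily, the higher calls were type I genes and the lower calls type II genes. Of the 5 type I genes, 3 were tested, and 2 rose and none fell in Hom. Their median log2 change of 0.98 is the value of Cdh4. Of the 13 type II genes, 10 were tested, and 2 fell and none rose in Hom (1, Cdh5, had a positive change at an unadjusted p under 0.05). Among the 10, 8 lay below 0, with Cdh8 (-0.02) and Cdh20 (-0.06) close to it, and the median was -0.25. Over all genes tested, 1.41% were called lower and 1.27% higher, and the median was 0.024. Within the summed TPM of all 35 genes, type II genes held 39.9% ± 1.38 in WT, 37.7% ± 2.08 in Het and 35.2% ± 0.565 in Hom (SD, n = 5, 5 and 4). Type I genes held 37.4% ± 1.40, 40.3% ± 3.76 and 42.2% ± 3.28. The sum of type II genes itself overlapped between groups, at 164 ± 14.5, 161 ± 26.7 and 155 ± 19.7 TPM. That of type I genes was 154 ± 10.9, 170 ± 7.14 and 184 ± 9.58 TPM. The sum of all 35 genes was 412 ± 42.1, 425 ± 48.5 and 440 ± 50.2 TPM. The type II sum includes Cdh5 of blood vessels, with means of 10.9 TPM in WT and 26.8 in Hom. The ratio of Cdh4 to Cdh10 TPM lay between 0.658 and 1.19 in WT (Het 0.873 to 2.31, Hom 3.42 to 5.04). Both genes already separated Hom from WT, so the separation of their ratio from WT was fixed in advance. These shares and ratios include the called genes and are given as description, without a test.

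None of the 12 tested protocadherins was called in Hom by limma, and 3 (Pcdh9, Pcdh12 and Pcdh18) had an unadjusted p under 0.05, where 2.68% of all genes tested were called and 14.9% had an unadjusted p under 0.05. Pcdh9, a large delta-1 gene of brain, came nearest among those with a negative change. It was 13.1 ± 2.38 TPM (SD, n = 5) in WT, 10.2 ± 2.47 (n = 5) in Het and 8.22 ± 2.77 (n = 4) in Hom, with a Hom range of 5.07 to 10.56 that reached into the WT range of 10.21 to 16.72. Its log2 change was -0.67 (SE 0.21, limma adjusted p 0.128), with -0.62 in batch 1 alone and -0.75 in batch 2 alone. The other delta-1 genes were Pcdh7 (7.9 ± 1.8 TPM in WT and 6.35 ± 2.05 in Hom), Pcdh11x (2.22 ± 0.226 and 2.17 ± 0.717) and Pcdh1. Among the delta-2 genes, Pcdh18 had 12.2 ± 0.97 TPM in WT and 14.7 ± 1.52 in Hom, and its log2 change was 0.25 (SE 0.11, adjusted p 0.284). Pcdh10 was at 14 ± 2.29 and 14 ± 2.68 TPM, Pcdh17 at 5.85 ± 1.65 and 6.52 ± 1.74, and Pcdh19, the X-linked epilepsy gene, at 2.07 ± 0.783 and 3.16 ± 0.94, with ranges that overlapped in each case. Of the remaining cadherins, Cdh11, known from mesenchyme, was 9.83 ± 2.29 TPM in WT and 11.8 ± 4.83 in Hom, and Cdh22 was 4.06 ± 0.998 and 3.04 ± 0.949.

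**Figure D3:**
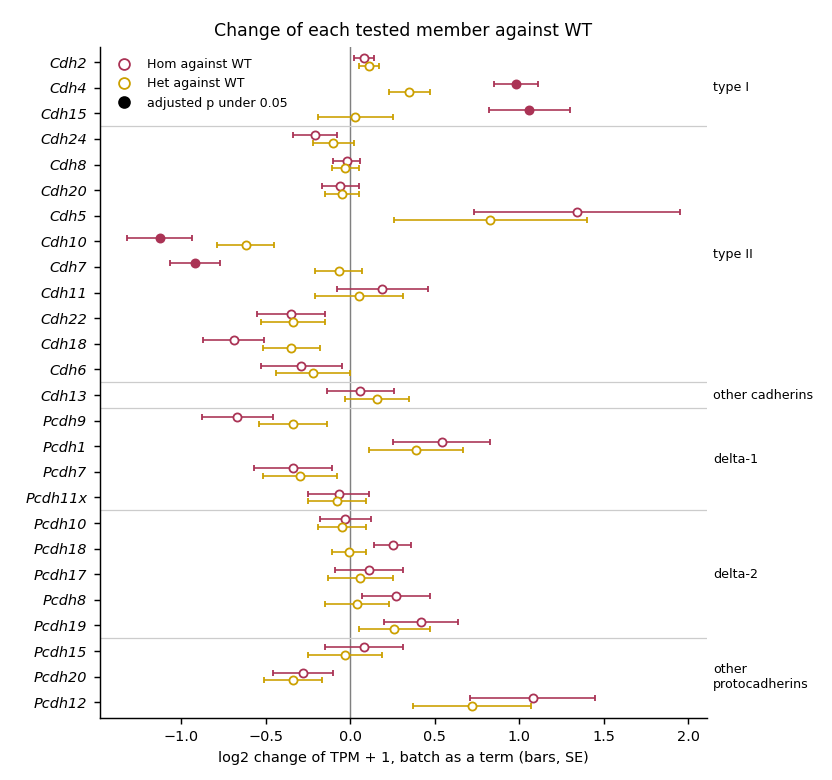
Log2 change of TPM + 1 against WT, with batch as a term, for the 26 tested members by subfamily, in Hom and in Het, with bars for the SE and filled points for limma adjusted p under 0.05. Only Cdh4, Cdh15, Cdh10 and Cdh7 are filled, all in Hom, and the bars of Cdh5 and Pcdh12 are the widest.

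The comparison of Het with WT addressed the loss of 1 copy. No member was called, where 1 gene of 17325 was (0.00577%), and at an unadjusted p under 0.05 there were 2 of the 26 members, Cdh10 and Cdh4, beside 6.08% of all genes. The Het change of Cdh10 was -0.62 on the log2 scale (SE 0.17, 95% interval -1 to -0.25, limma adjusted p 0.515). Without Het 2, which lay in the WT range, it was -0.81 (adjusted p 0.0273), in a fit that called 6 of all genes lower and 7 higher. Het 2 was singled out after its value was seen, and leaving out any other library gave adjusted p of 0.44 to 0.864. Cdh4 had a change of 0.35 in Het (SE 0.12, 95% interval 0.09 to 0.61, adjusted p 0.606). For Cdh7 the Het change was -0.07 (95% interval -0.37 to 0.23) and for Cdh15 0.03 (95% interval -0.45 to 0.50). Chosen after its values were seen, Pcdh20 was the one member with every Het library (1.98 to 3.37 TPM) below every WT library (3.42 to 4.47), which held for 0.583% of all genes, and no member had every Het library above WT (0.462%). Its Hom libraries, at 2.06 to 4.19 TPM, overlapped with WT.

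Compared directly, the libraries labelled Hom and Het differed in 1 member, Cdh7, where 0.427% of all genes were called, 0.277% lower and 0.15% higher in Hom. Cdh7 was lower in Hom than in Het (-0.86 on the log2 scale, SE 0.15, adjusted p 0.0246 by limma), and the call did not hold without Het 1, Het 2, Het 4, Het 5 or Hom 2, with adjusted p from 0.0624 to 0.0875. Cdh4 had a difference of 0.63 (SE 0.13, adjusted p 0.0549), Cdh15 of 1.04 (SE 0.24, adjusted p 0.0929) and Cdh10 of -0.50 (SE 0.19, adjusted p 0.564). Without WT 3 or WT 4, Cdh4 was called at adjusted p 0.0459 and 0.0399. The Hom against WT and Het against WT comparisons share the WT libraries, and Hom against Het shares its groups with both.

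The endothelial cadherins moved with the endothelial markers of the libraries. Cdh5 was 3.62, 5.52, 4.94, 25.35 and 15.29 TPM in WT 1 to 5, and 16.15, 46.16, 2.47, 15.84 and 27.85 in Het 1 to 5. Hom 1 to 4 had 12.91, 36.68, 21.57 and 36.04 TPM. The 3 WT libraries of batch 1 and Het 3 were low and all others were high, so that the groups overlapped. The Hom change (log2) was 1.34 (SE 0.61, 95% interval 0.02 to 2.66, limma adjusted p 0.324). The summed TPM of 9 endothelial markers (Pecam1, Cldn5, Flt1, Kdr, Tek, Tie1, Emcn, Esam and Ly6c1, none at 0 in any group) ran from 27.1 to 235 in WT (Het 21 to 519, Hom 121 to 388), and it was 20.98 to 36.2 in the 4 libraries where Cdh5 was low. All 9 had positive changes in Hom, with a median of 1.52, and none was called by limma, although 7 had an unadjusted p under 0.05. Pcdh12, a protocadherin of endothelium, was 0.32, 0.58, 0.49, 3.08 and 1.53 TPM in WT 1 to 5 and 1.77, 4.23, 3.66 and 4.75 in Hom 1 to 4, with a log2 change of 1.08 (SE 0.37, adjusted p 0.18). Pcdh1 ran from 3.92 to 10.42 TPM in WT (Het 4.21 to 14.86, Hom 4.9 to 11.87). With the endothelial marker level as a covariate, chosen after seeing the data, the change in Hom was -0.09 for Cdh5 (SE 0.10) and 0.25 for Pcdh12 (SE 0.16), and all of Cdh4 (0.93), Cdh15 (1.23), Cdh7 (-1.05) and Cdh10 (-1.45) were called, as were Cdh18 (-0.91, adjusted p 0.0293) and Pcdh9 (-0.95, adjusted p 0.0377).

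**Figure D4:**
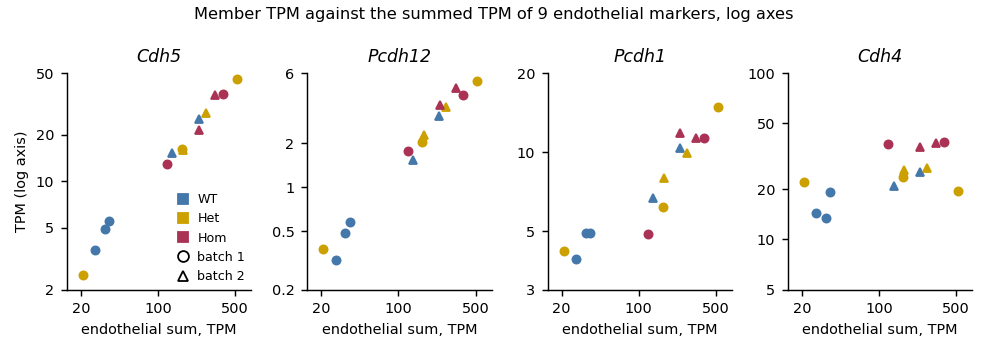
TPM of Cdh5, Pcdh12, Pcdh1 and Cdh4 against the summed TPM of 9 endothelial markers in each library, with logarithmic axes, colour for labelled genotype and shape for batch. Cdh5 and Pcdh12 climb with the endothelial sum in all groups. Cdh4 is at 36.04 to 38.7 TPM in Hom over an endothelial sum of 121 to 388 TPM. In WT, Cdh4 is at 13.5 to 19.19 TPM in WT 1 to 3, with sums of 27.09 to 36.2 TPM. It is at 25.44 and 20.87 TPM in WT 4 and 5, with sums of 235 and 135.3 TPM, and these libraries also differ in batch. In Het, Cdh4 is at 22.27 TPM at the lowest sum and 19.46 TPM at the highest.

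Markers of other cells were examined in the same way. All 8 Bergmann glia and astrocyte markers had changes below 0 in Hom, with a median of -0.86 and none called by limma (6 had an unadjusted p under 0.05), and their summed TPM ran from 384 to 1840 in WT (Het 556 to 1130, Hom 309 to 660). All 7 tested of 9 Purkinje cell markers were below 0 as well, 1 of them called (Pcp4), with sums of 47.3 to 196 in WT (Het 41.2 to 91.5, Hom 35.2 to 52.1). Within WT the Purkinje sum was 182.4, 196.3 and 149 TPM in WT 1 to 3, and 53.65 and 47.26 in WT 4 and 5. The Bergmann glial sum was 1664, 1836 and 1151 TPM in WT 1 to 3, and 853.4 and 383.9 in WT 4 and 5. Among Het libraries both sums were highest in Het 3, at 91.52 and 1133 TPM. WT 1 to 3 and Het 3 also had the lowest endothelial sums. Of 10 tested markers of postmitotic granule neurons, 3 were lower (Neurod1, Slc17a7 and Tubb3) and 1 was higher (Grin2c), and of 11 GNP markers Ccnd1 was higher. All 5 red blood cell genes were below 0 in both comparisons, with medians of -0.80 in Hom and -1.02 in Het, 4 at an unadjusted p under 0.05 in each and none called, and sums of 296 to 715 TPM in WT (Het 141 to 364, Hom 188 to 350). Of 7 choroid plexus markers, 5 were tested, 3 of these were below 0 in Hom, and Clic6 (1.95, SE 0.16, limma adjusted p 2.36e-05) and Otx2 (0.66, SE 0.14, adjusted p 0.0206) were called higher, with sums of 76.3 to 585 TPM in WT (Het 72.2 to 246, Hom 132 to 183). Otx2 alone had means of 80.6 TPM in WT, 79.6 in Het and 128 in Hom, beside median sums of 114, 89.1 and 146. Much of each group's sum was therefore Otx2, and the sums do not stand for the list as a whole. All 6 mural cell markers were above 0 in Hom, with a median of 0.48 and none called (1 had an unadjusted p under 0.05), and sums of 17 to 104 TPM in WT (Het 12.2 to 131, Hom 37.5 to 77.6). No marker of inhibitory interneurons, oligodendroglia, microglia or meninges was called in Hom, and their median changes were 0.17, 0.24, 0.19 and 0.19. None of the markers on these lists was at 0 in a whole group. The part of the red blood cell, choroid plexus and mural cell levels in the members' changes was not tested. With the Bergmann glial, Purkinje or postmitotic neuron level as a covariate, chosen after seeing the data, Cdh4, Cdh7 and Cdh10 were called each time, with changes of 0.92 to 1.06 for Cdh4, -1.08 to -0.92 for Cdh7 and -1.45 to -1.18 for Cdh10. Cdh15 was called with the first 2 but not with the last (1.16, adjusted p 0.0608). Each covariate, including the endothelial one, was the mean log2(TPM + 1) of the tested markers on its list and not the summed TPM. Called markers of postmitotic neurons went both ways, with Grin2c at 1.51 and Neurod1 at -0.55, Slc17a7 at -0.71 and Tubb3 at -0.38. Their mean level is therefore no measure of how many such neurons were present. In bulk RNA, fewer cells of a type and less of a transcript per cell cannot be told apart.

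Differences between the batches were called for 2 members. Cdh13, the T-cadherin that is anchored to the membrane by a lipid, was 9.58, 13.2 and 10.34 TPM in the WT libraries of batch 1 and 19.33 and 11.86 in those of batch 2. It was 9.28, 15.32 and 10.4 TPM in Het 1 to 3, 20.12 and 18.22 in Het 4 and 5, 8.11 and 14.95 in Hom 1 and 2, and 14.5 and 19.16 in Hom 3 and 4. Its batch change was 0.56 (SE 0.16, limma adjusted p 0.0342), and its Hom change was 0.06 (SE 0.20, 95% interval -0.37 to 0.48). Pcdh8, a delta-2 protocadherin of synapses, was 3.06, 3.72 and 2.89 TPM in WT 1 to 3, 5.39, 4.66 and 3.75 in Het 1 to 3, with Hom 1 and 2 at 5.78 and 6.44. In batch 2 it was 8.26 and 10.57 in WT, 6.3 and 6.3 in Het, and 6.86 and 7.51 in Hom. All mutant libraries lay above all WT libraries in batch 1 and below them in batch 2. How many of all genes have this pattern was not computed. The batch change of Pcdh8 was 0.66 (SE 0.16, adjusted p 0.0204), and 13.5% of all genes were called for batch (5.61% lower and 7.88% higher in batch 2). The Hom change differed between the batches by -1.09 (SE 0.26, unadjusted p 0.00133, limma adjusted p 0.127). Cdh15 had a difference of 1.21 (SE 0.36, adjusted p 0.153) and Cdh4 of -0.58 (SE 0.21, adjusted p 0.215), so no member passed this test, which 0.0115% of all genes did.

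**Figure D5:**
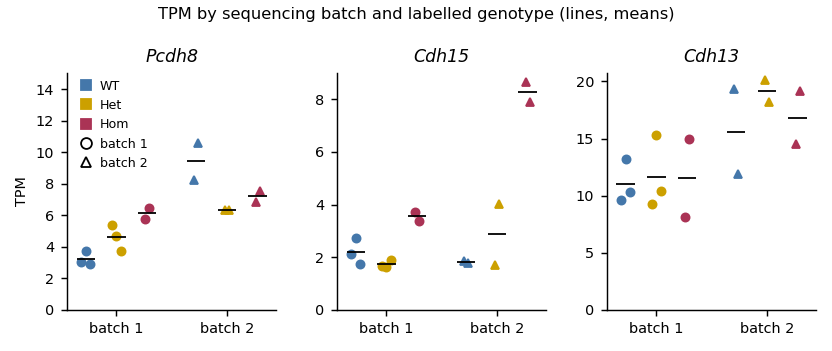
TPM of Pcdh8, Cdh15 and Cdh13 by sequencing batch and labelled genotype, with lines for the means. The order of the groups turns between the batches for Pcdh8, the Hom means of Cdh15 are 3.55 and 8.26 TPM, and Cdh13 is higher in batch 2.

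The genes that work with cadherins were then examined. Of 13 tested catenins and junction partners, 2 were called in Hom (15.4%, beside 2.68% of all genes tested). Ctnna2, the neural alpha-catenin that links cadherins to actin, fell in Hom, to 52 ± 2.61 TPM (SD, n = 4) against 65.7 ± 5.14 (SD, n = 5) in WT, and Het was at 59 ± 4.4 (SD, n = 5). Its log2 change was -0.33 (SE 0.07, adjusted p 0.025 by limma). Nectin1, an immunoglobulin-type adhesion receptor of the same junctions, rose from 7.94 ± 1.37 to 12.3 ± 3.45 TPM, a log2 change of 0.50 (SE 0.10, adjusted p 0.0176). The median over the list was 0.03. None of the 5 genes for cadherin cleavage and maturation, such as Adam10 and Furin, was called, and neither was any of the 10 cytoplasmic partners of delta protocadherins, such as the WAVE complex genes Nckap1 and Cyfip2, or of the 11 tested large cadherins of the Fat, Dachsous, Celsr and calsyntenin families. At an unadjusted p under 0.05 these 3 lists held 1, 2 and 2 genes, all with positive changes, where 14.9% of all genes had such a p and 8.51% had it with a positive change.

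Cadherin genes are long, which the symbol rule did not use. The 26 tested members had a median span of 149 kb from annotated start to end, and 16 of them (61.5%) were over 100 kb, against a median of 24.9 kb and 15% among the 13954 tested protein-coding genes. The median log2 change in Hom was -0.06 for the members over 100 kb and 0.26 for the shorter ones, beside 0.05 and 0.03 among all protein-coding genes. Without the endothelial Cdh5 and Pcdh12 and without Pcdh1, left out after seeing the data, the median of the 7 remaining shorter members was 0.11. Among the called genes, Cdh4 spans 457 kb, Cdh10 195 kb and Cdh7 158 kb, and Cdh15 spans 19.4 kb, so called genes of both directions were found among the long ones.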

How the data were processed

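GNP libraries were grouped by the genotype in their labels. The authors deposited 1 table of TPM, made from single-end reads aligned by Bowtie 1.0.0 against Ensembl transcripts of mm10 and quantified by RSEM 1.2.15, per the labels and the study's methods. Without a strand setting named, sense and antisense reads were taken as mixed. Columns headed as controls were read as the WT libraries of that number, and batches follow the study's methods. TPM keeps no depth, so no counting error was computed, and a TPM is a share of a fixed total.

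Genes that reached 1 TPM in 4 or more libraries were analysed as log2(TPM + 1), a scale that understates changes of low genes, with limma 3.58.1 in R 4.3.3 (lmFit, eBayes with trend, two-sided, Benjamini-Hochberg over 17325 genes), and genotype-by-batch differences as interaction terms. The study's kind of test, Kruskal-Wallis, was run exactly on batch-adjusted values. On simulated data with these group sizes, 73% of changes of 1 and 35% of changes of 0.5 (log2) were called. Nothing states that libraries came from separate animals, so p-values measure the spread between libraries. Symbols and positions came from GENCODE vM21, upstream sequences from RefSeq. Figures were drawn with matplotlib 3.10.9.

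Members and gene lists were chosen with earlier results of these data known. Each library's value is given for members called in a contrast and for the 6 with the highest mean TPM, and of the partner lists only called genes are given with values. Values of Cdh18, Pcdh9, Pcdh12, Pcdh1 and Pcdh20 beyond their means were chosen after they were seen. Nothing states whether replicate numbers mark shared litters. Deviations of same-numbered libraries correlated between -0.235 and 0.264 (over 0.1 in 3 of 13 pairs). Their median was -0.0569, beside -0.13 for other pairs of one batch. The same-numbered pairs WT 3 with Hom 3 (0.124) and Het 3 with Hom 3 (0.264) cross the batches, so these medians are of unlike sets. These values cannot show that pairing is absent. No pairing was used in the main fit, and a replicate block is among the alternatives.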

Additional observations from a re-analysis of the deposited data

Results flagged for a closer look

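Among 78 groups of values (26 tested members in 3 labelled genotypes), 3 held a library far from the others of its group, where chance gives about 1 in 20. Cdh15 was 4.01 TPM in Het 5 and 1.63 to 1.88 TPM in the other Het libraries. Cdh18 was 2.45 TPM in Hom 2 and 0.98 to 1.17 TPM in the other Hom libraries. Pcdh1 was 4.9 TPM in Hom 1 and 11.35 to 11.87 TPM in the other Hom libraries, and Hom 1 also had the lowest endothelial marker sum of the Hom libraries (121 TPM).

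For Pcdh8 all Het and Hom libraries, and for Cdh8 the Hom libraries, lay above all WT libraries in batch 1 and below them in batch 2. The share of all genes with such a pattern was not computed. With so few libraries per group and batch, some genes would have it by chance. For Pcdh8 the batch 2 change minus the batch 1 change was -1.09 in Hom (limma adjusted p 0.127) and -0.91 in Het (adjusted p 0.478). For Cdh8, with Hom libraries at 34.91 and 36.42 TPM above WT in batch 1 and at 31.4 and 34.71 TPM below WT in batch 2, the difference was -0.34 in Hom (unadjusted p 0.0379, limma adjusted p 0.265).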

How the results depend on the processing

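For 25 log2 changes of single members, 743 values were computed under alternatives, of which 686 kept their direction and side of the threshold, 24 lost a call, 14 gained one and 19 reversed. In Hom against WT, Cdh4, Cdh7 and Cdh10 were called in every alternative except the single-batch fits, where batch 1 alone gave 0 lower and 1 higher member and batch 2 alone gave 0 and 0, with fewer libraries. The 2 higher members became 1 at a mean TPM of at least 5 (Cdh15 was not tested), with the replicate block (Cdh15 1.17, adjusted p 0.0638, while Pcdh9 at -0.65, adjusted p 0.0149, made 3 lower), with the 2 genotypes alone, and with the postmitotic neuron covariate. Leaving out 1 library gave 2 to 3 lower and 1 to 2 higher. The endothelial covariate gave 4 lower. Cdh18 was also called after quantile normalization (-0.75, adjusted p 0.0291). In Het against WT leaving out 1 library gave 0 to 1 lower member. In Hom against Het, 1 lower member became 0 in batch 1 alone, batch 2 alone, the 2 genotypes alone and with the postmitotic neuron covariate, and 0 higher became 1 at a mean TPM of at least 5, with median-ratio scaling, quantile normalization, Het 3 in batch 2 and the 2 genotypes alone. Leaving out 1 library gave 0 to 1 in each direction. The replicate block, a fit without the batch term, changed no other call, and the cause of these changes was not tested.

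Reversals concerned uncalled changes near 0 or Cdh5. In Hom, Cdh8 was 0.13 in batch 1 alone and -0.07 to 0.03 when 1 library was left out (above 0 without WT 4 or Hom 3), Cdh2 was -0.01 in batch 2 alone and with the endothelial covariate and -0.03 with the Purkinje covariate, Cdh20 ranged from -0.15 to 0.04 when 1 library was left out (above 0 without Hom 3) and was 0.01 with the Bergmann glial covariate, and Cdh5 was -0.09 with the endothelial and 0 with the Purkinje covariate. In Het, Cdh15 was -0.22 in batch 1 alone, -0.05 with Het 3 in batch 2 and -0.11 to 0.15 when 1 library was left out (below 0 without WT 4, WT 5 or Het 5), Cdh7 was 0.01 without WT 5 or Het 3, and Cdh5 was -0.17 and -0.36 with the endothelial and Purkinje covariates. With depth unknown, differences in the 9 members under 1 TPM were not assessed.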
